A study of Mus musculus with 4 samples.

Results

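The 47 genes described here encode proteins that copy DNA or carry a cell through mitosis, and they were measured in sorted Lgr5-high stem cells of the mouse intestine. They are listed by name, 24 S-phase genes and 23 G2/M genes. No measured value enters the rule that picks them, but the list was drawn up with earlier results of these data known, so its counts are a description. For each gene the probe with the highest mean signal was read, and 46 of the 47 genes were among the 24865 genes tested. Control mice carried the Lgr5-EGFP-Ires-CreERT2 knock-in allele (Lgr5ki), and knockout mice carried the same allele together with loss of the type I interferon receptor gene (Ifnar1-/-:Lgr5ki). Both groups had been given poly(I:C), a double-stranded RNA mimic that induces interferon, at 2 mg/kg daily for 1 week by intraperitoneal injection, so the comparison is between genotypes under treatment and has no untreated arm. That schedule is the one in the series' design text, while the sample labels speak of 1 week after injection, and which of them holds is not settled. The knock-in allele places the green reporter and an inducible recombinase under the Lgr5 promoter, and it is known to be active in a mosaic of crypts, so the sort takes only reporter-positive cells. RNA of 2 samples per group was amplified and hybridised to 1 single-colour Agilent array each. The sources used here give neither animal ages nor whether a sample was 1 animal or a pool. The p-values below therefore reflect variation among these 4 samples only, part of which may be technical.

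Lgr5-high stem cells at the crypt base divide often in the healthy intestine. Before S phase, Cdc6 and Cdt1 load the ring-shaped Mcm helicase onto origins of replication, the GINS complex and Mcm10 then help to activate it, and polymerases, the Pcna clamp and enzymes of nucleotide synthesis carry out the copying. In G2 and mitosis, cyclin B with Cdk1, the Aurora and Polo-like kinases, spindle motors and the anaphase-promoting complex take over. Transcription of the S-phase set is known to follow E2F factors, and that of the mitotic set the MuvB complexes, which bind a CHR element and act with NF-Y at CCAAT boxes.

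The promoters of the members were read from RefSeq (GRCm38.p6), in windows from 250 bases before to 50 bases after the annotated start. A window was held for 19 S-phase and 18 G2/M members, and not for Mcm4, Gins1, Gins2, Pole, Ccne2, Ccna2, Foxm1, Aurkb, Kif20a or Tpx2. Motifs were looked for on both strands. As E2F-like letters TTCCCGC was searched along with its variants, of which TTGGCGC is the first and TTCGCGC the second. The CHR element was searched as TTTGAA, and the NF-Y box by the letters CCAAT. The stretches below show the 150 bases before the start of 4 S-phase and 3 G2/M members, chosen because they show how the sets differ in sequence and because the differences of Mcm2, Mcm6 and Cdc20 are described at length. Capitals mark E2F-like, CHR and CCAAT matches on either strand, so that ATTGG, for example, is a CCAAT match of the other strand. Overlapping matches run together as a single run of capitals, as in both E2F-like runs of Mcm6. The stretches lie at chr1:128359706-128359855 (minus strand) for Mcm6, chr7:102441545-102441694 (plus) for Rrm1, chrX:93632156-93632305 (minus) for Pola1, chr6:88898781-88898930 (minus) for Mcm2, chr4:118437344-118437493 (minus) for Cdc20, chr19:37376232-37376381 (plus) for Kif11 and chr11:99024190-99024339 (minus) for Top2a, each printed 5′ to 3′ along its gene.
Mcm6: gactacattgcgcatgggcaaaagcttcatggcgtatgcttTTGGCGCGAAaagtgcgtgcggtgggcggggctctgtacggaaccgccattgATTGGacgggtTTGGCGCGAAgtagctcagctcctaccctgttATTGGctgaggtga
Rrm1: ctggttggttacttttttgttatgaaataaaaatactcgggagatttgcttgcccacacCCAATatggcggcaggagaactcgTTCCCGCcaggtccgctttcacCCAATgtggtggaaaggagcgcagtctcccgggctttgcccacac
Pola1: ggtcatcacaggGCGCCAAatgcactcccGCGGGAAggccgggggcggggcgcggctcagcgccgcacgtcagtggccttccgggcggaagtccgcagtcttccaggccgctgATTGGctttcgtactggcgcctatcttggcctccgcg
Mcm2: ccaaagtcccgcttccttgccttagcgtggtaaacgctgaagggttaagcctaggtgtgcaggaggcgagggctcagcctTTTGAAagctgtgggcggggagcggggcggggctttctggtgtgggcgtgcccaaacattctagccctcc
Cdc20: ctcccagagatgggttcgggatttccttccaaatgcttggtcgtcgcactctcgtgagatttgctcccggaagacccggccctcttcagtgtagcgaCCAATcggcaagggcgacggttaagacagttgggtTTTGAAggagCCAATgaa
Kif11: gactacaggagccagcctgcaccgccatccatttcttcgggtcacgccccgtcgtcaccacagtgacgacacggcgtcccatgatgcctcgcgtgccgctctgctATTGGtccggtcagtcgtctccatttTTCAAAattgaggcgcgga
Top2a: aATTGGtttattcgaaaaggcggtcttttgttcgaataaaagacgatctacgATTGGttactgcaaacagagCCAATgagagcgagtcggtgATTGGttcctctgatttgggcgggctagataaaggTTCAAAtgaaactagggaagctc

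A gene counted if any of its windows matched. The S-phase members had 24 windows, the G2/M members 18 and all genes 32851. An E2F-like match was present in a window of 12 of 19 S-phase members (63.2%) and 4 of 18 G2/M members (22.2%). Of all 27025 genes with a window, 9.2% held such a match. A CHR match was present in 2 of 19 S-phase members (10.5%) and 13 of 18 G2/M members (72.2%), against 20.2% of all genes. CCAAT was present in 57.9% of the S-phase and 88.9% of the G2/M members, against 41.1% of all genes. All 13 G2/M members with a CHR match also held CCAAT, a combination found in 7.97% of all genes. Mcm6 held 5 E2F-like matches in its full window, where overlapping matches were each counted. Pola1 held 4, none of them overlapping, whereas Mcm2 held 0 with 1 CHR match. These counts describe letters, not bound sites, and were not tested.

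The genotype was checked first. Ifnar1 read -0.21 and -0.37 in the controls and -1.76 and -2.28 in the knockouts, in log2 units above or below the 75th percentile of its array, the scale of every level given here. Both knockout arrays lay below both controls, and Ifnar1 fell by 1.73 (3.31-fold lower), with a limma adjusted p of 0.0433 when the slide was a block and 0.480 when it was not. Replicate number, slide and scan went together: slide 1 held control 1 and knockout 1, slide 2 held control 2 and knockout 2. Mean net signal of negative control spots was 34.8 to 35.3 on slide 1 and 17.2 to 17.6 on slide 2. Lgr5, the sorting gene, read 3.04 and 2.82 in the controls and 3.32 and 2.93 in the knockouts. The summed linear signal of 12 stem cell markers was 138 to 152 in the controls and 143 to 152 in the knockouts. All 12 were well above background on all 4 arrays. Such a sum follows its brightest probes. Of the 12 markers 8 (66.7%) were higher on both slides and 2 lower on both, against 34.0% and 27.2% of all genes. Their median difference was 0.10, from -0.23 for Aqp4 to 0.67 for Tnfrsf19. The summed signal of 19 interferon-stimulated genes was 28.6 to 67.3 in the controls and 5.25 to 6.22 in the knockouts. Of these, 14 were well above background on all 4 arrays. Oas3, Ifit1, Ifi44 and Usp18 were so in the controls only and were kept through that group.

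Transcripts of neighbouring cell types were also measured. All 7 Paneth cell markers tested fell in the slide-block limma fit, with adjusted p from 0.00398 to 0.0489, and their summed signal was 465 and 594 in the controls against 120 and 193 in the knockouts. Sums of the other lists follow their brightest probes, so counts are given with them. Of all genes, 34.0% were higher on both slides, 27.2% lower on both, and 11.4% had both knockout arrays below both controls. In the slide-block fit 0.402% of all genes were called lower. Enterocyte markers summed to 49.8 and 58.4 in the controls and 69.0 and 73.6 in the knockouts, with 10 of 11 well above background on every array. Most of that sum was Fabp2 (a difference of 0.49), and of the 11 markers 7 were higher on both slides and 4 lower on both, with Anpep at -0.90. The 9 goblet markers summed to 154 to 156 and 114 to 157, mostly from Fcgbp (0.04). Their median difference was -0.37, both knockout arrays were below both controls for 4 of 9, and Ccl6 fell 2.82-fold in the slide-block limma fit (adjusted p of 0.0382), with Spink4 at -1.55. The 10 enteroendocrine markers summed to 9.10 to 13.5 in the controls and 5.58 to 8.41 in the knockouts, and 7 were lower on both slides. Tuft cell sums were 2.84 to 2.87 and 2.76 to 3.47, with Ptgs1 above background on no array. Immune cell sums were 239 to 358 and 233 to 350, mostly from Itgam (-0.01). Of the 12 immune markers 6 were higher on both slides, with Gzma at 1.06, and Lyz2 fell by 2.64 in the slide-block limma fit (adjusted p of 0.00677). Stromal sums were 0.686 to 0.936 and 0.790 to 0.954, and Col1a1, Pdgfra, Dcn, Lum and Cdh5 were above background on no array. Their part in the differences between members was not tested. In such bulk samples, a smaller share of cells in a phase and less RNA per cell cannot be told apart.

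No member passed the adjusted threshold of 0.05 in either limma fit. Without the slide block, 0 of 24865 genes (0%) passed, and at an unadjusted p under 0.05 there were 259 higher and 427 lower genes. With the block, 0.0523% of genes were called higher and 0.402% lower, and the smallest adjusted p of a member was 0.136. Members are therefore described by their values on the 4 arrays.

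The S-phase members mostly lay above control. The median difference between knockout and control means was 0.32 on the log2 scale (1.25-fold), against 0.02 for all genes tested, and it was 0.40 on slide 1 and 0.23 on slide 2 (SD 0.117, n = 2). The mean was above control for 24 of 24 S-phase members, against 54.3% of all genes. That count includes Ccne2 (0.01), which was kept only through the knockout arrays, and Lig1, which had 1 knockout array. With quantile scaling 22 of 23 were above control. Of the 23 measured on all 4 arrays, 21 (91.3%) were higher in the knockout on both slides, where 34.0% of all genes were, and 0 were lower on both, where 27.2% of all genes were. Both knockout arrays stood above both control arrays for 14 of 23 members (60.9%), against 14.5% of all genes. In the slide-block fit 11 of 24 (45.8%) had an unadjusted p under 0.05 on the higher side, against 7.42% of all genes, and without the block Gins1 alone did. That count depended on the intensity trend of the fit. With the block but no trend, 2 of all 46 members had such a p, as did 1044 of 24865 genes.

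**Figure D1:**
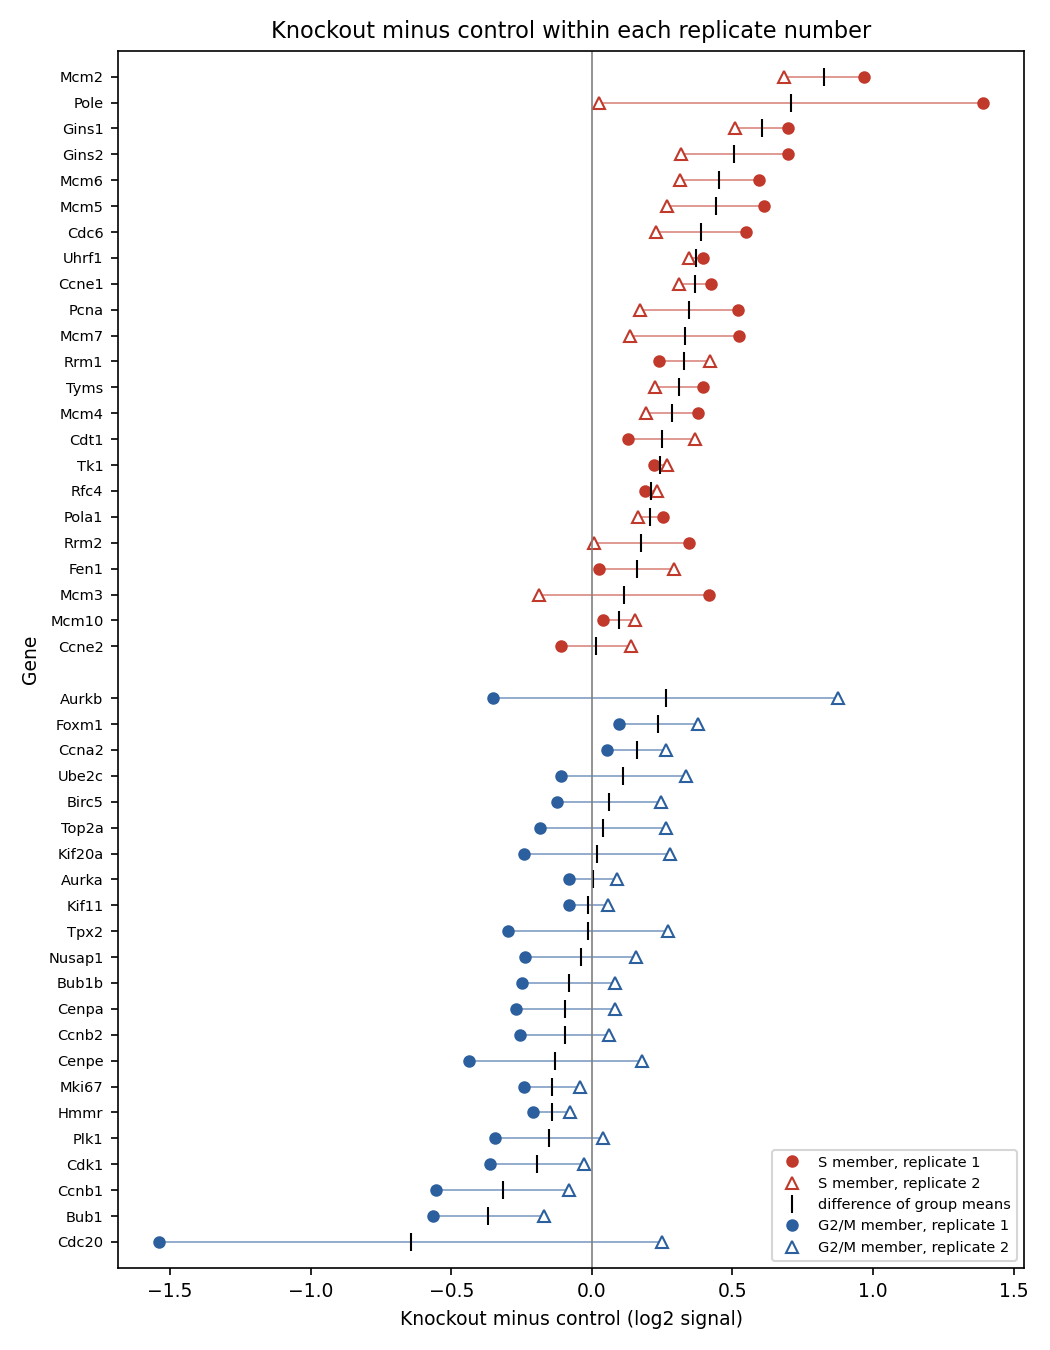
Knockout minus control (log2 signal, horizontal axis) for each member measured on all 4 arrays (vertical axis), with filled circles for replicate 1, open triangles for replicate 2 and a black tick for the difference of group means. S-phase members in red lie to the right of 0 with both symbols for 21 of 23 genes, while 15 of 22 G2/M members in blue have their symbols on opposite sides.

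Among the helicase subunits Mcm2 to Mcm7 the median difference was 0.39 (0.56 on slide 1, 0.23 on slide 2). Mcm2 had the widest difference of all members. It read 0.33 and -0.63 in the controls and 1.30 and 0.06 in the knockouts. The groups overlapped, since control 1 lay above knockout 2, but the knockout was higher by 0.97 within slide 1 and by 0.68 within slide 2. The difference of means was 0.83 (SE 0.14 in the slide-block fit, 1.77-fold, limma adjusted p of 0.136). Mcm6 read 6.13 and 6.38 in the controls and 6.72 and 6.69 in the knockouts, without overlap, a difference of 0.45 (SE 0.09, 1.37-fold, limma adjusted p of 0.181 with the block).

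Mcm5 stood at 2.04 and 1.91 in the controls and 2.65 and 2.18 in the knockouts. Mcm7 stood at 5.69 and 5.80 against 6.22 and 5.93, and Mcm4 at 4.76 and 4.59 against 5.14 and 4.78. In all 3 subunits both knockout arrays were above both controls and knockout 1 was the highest array, with differences of means of 0.44, 0.33 and 0.28. Mcm3 departed from the other subunits. It read 2.37 and 2.69 in the controls and 2.79 and 2.50 in the knockouts, higher by 0.42 on slide 1 and lower by 0.19 on slide 2.

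The licensing and initiation factors had a median difference of 0.39 and all 5 were higher on both slides, against 34.0% of all genes. Gins1, a subunit of the GINS complex that joins the active helicase, read 0.14 and 0.02 in the controls and 0.83 and 0.53 in the knockouts. The groups did not overlap and the difference was 0.60 (SE 0.13, 1.52-fold, limma adjusted p of 0.222 with the slide block). Its partner Gins2 read -0.28 and 0.80 in the controls and 0.42 and 1.11 in the knockouts. Here the slides were further apart than the genotypes, so that control 2 exceeded knockout 1, while both slides gave a positive difference (0.70 and 0.32).

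Cdc6, an ATPase that recruits the helicase to origins, read 1.17 and 1.02 in the controls and 1.72 and 1.25 in the knockouts. Cdt1, which works with it, read 1.74 and 1.67 against 1.87 and 2.04. Neither gene had overlapping groups, and the larger difference fell on slide 1 for Cdc6 (0.55) and on slide 2 for Cdt1 (0.37). Mcm10, which stabilises the helicase at the fork, differed by 0.10.

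**Figure D2:**
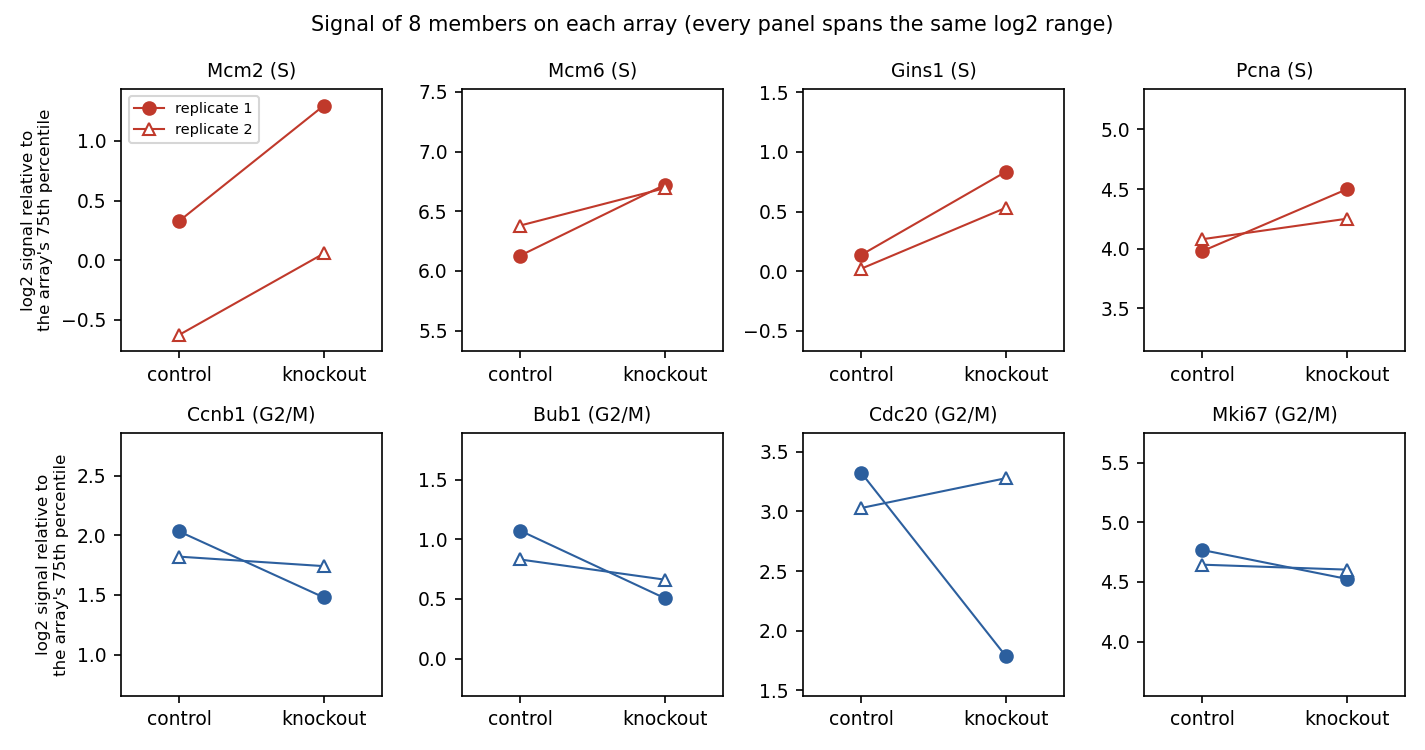
Log2 signal, with the 75th percentile of the array at 0 (vertical axis) in control and knockout (horizontal axis) for 4 S-phase members (red, top) and 4 G2/M members (blue, bottom), with lines joining arrays of the same replicate number, filled circles for replicate 1 and open triangles for replicate 2. The knockout end is the higher on both lines for Mcm2, Mcm6, Gins1 and Pcna, and the Cdc20 lines part, with differences of -1.54 and 0.25.

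The enzymes that supply nucleotides were all higher on both slides, against 34.0% of all genes, with a median difference of 0.28. Rrm1, the large subunit of ribonucleotide reductase, read 3.06 and 3.15 in the controls and 3.29 and 3.57 in the knockouts. The groups did not overlap, the difference was 0.33 (limma adjusted p of 0.300 with the slide block), and it was the wider on slide 2 (0.42). Tk1, the S-phase thymidine kinase, read 1.52 and 1.46 against 1.74 and 1.73, also without overlap. Tyms, thymidylate synthase, differed by 0.31, and Rrm2, the small reductase subunit, by 0.18, nearly all of it from slide 1 (0.35, against 0.01 on slide 2).

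Polymerases, the clamp and lagging-strand enzymes had the smaller median difference of 0.21. Pcna, the sliding clamp, read 3.98 and 4.08 in the controls and 4.50 and 4.25 in the knockouts. Both knockout arrays lay above both controls, a difference of 0.35 (SE 0.11, 1.27-fold, limma adjusted p of 0.329 with the block). Pola1, the catalytic subunit of the primase-coupled polymerase, and Rfc4, part of the clamp loader, each differed by 0.21 and had groups that did not overlap. Fen1, the flap nuclease, differed by 0.16. Lig1, the ligase that seals Okazaki fragments, read 5.05 and 5.08 in the controls and 5.22 in knockout 2, and its knockout 1 spot was flagged as an outlier and left out of the fit.

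Pole, the catalytic subunit of the leading-strand polymerase, depended on 1 array and 1 probe. Its brightest probe read -1.95 and -1.53 in the controls and -0.56 and -1.51 in the knockouts, so that knockout 1 stood alone and slide 2 differed by 0.02. Its other probe differed by -0.01. Among the remaining S-phase members, Uhrf1, which guides maintenance DNA methylation at the fork, read 4.77 and 3.88 in the controls and 5.16 and 4.23 in the knockouts. Slide 1 was the brighter in both groups, and the differences within the slides were close (0.40 and 0.35, limma adjusted p of 0.197 with the block). Ccne1, a cyclin that opens S phase, differed by 0.37. Ccne2, its relative, differed by 0.01 and was well above background on only 3 of the 4 arrays.

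The G2/M members gave no common direction. The median difference was -0.06, with -0.25 on slide 1 and 0.12 on slide 2 (SD 0.26, n = 2). On slide 1, 20 of 22 were lower in the knockout, and on slide 2, 17 of 22 were higher. Of all 24864 genes measured on 4 arrays, 11435 were lower on slide 1 and 13113 higher on slide 2. Only 2 of 22 (9.09%) were higher on both slides and 5 (22.7%) were lower on both, against 34.0% and 27.2% of all genes, and 15 differed in sign between slides. Both knockout arrays were above both controls for Foxm1 and below them for Mki67, Ccnb1 and Bub1, where 14.5% and 11.4% of all genes were so placed. The other probes of Ccnb1 and Mki67, however, were higher in the knockout on slide 2. In the slide-block fit 1 member, Bub1, had an unadjusted p under 0.05 on the lower side, against 4.97% of all genes. With the block but no intensity trend 0 members did, against 1024 of 24865 genes. Cenpf, a kinetochore protein, was too dim to be kept.

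Of the mitotic cyclins and their kinase, Ccnb1 (cyclin B1) read 2.03 and 1.82 in the controls and 1.48 and 1.74 in the knockouts. Both knockout arrays were lower, but slide 2 differed by only -0.08, and the difference of means was -0.32 (SE 0.14, limma adjusted p of 0.440 with the block). The other probes of Ccnb1 differed by -0.02 and -0.05, lower on slide 1 and higher on slide 2. Cdk1, the kinase that cyclin B1 activates, differed by -0.20 with its brightest probe and by 0.36 and 0.02 with its other probes. Ccnb2 (cyclin B2) differed by -0.10 and Ccna2 (cyclin A2, used in S phase and G2) by 0.16. Foxm1, a transcription factor of G2/M genes, read 1.46 and 1.37 in the controls and 1.56 and 1.75 in the knockouts, a difference of 0.24 with no overlap (limma adjusted p of 0.477 with the block).

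Among mitotic kinases and checkpoint proteins, Bub1, a spindle checkpoint kinase, read 1.07 and 0.83 in the controls and 0.51 and 0.66 in the knockouts. The groups did not overlap and the difference was -0.37 (SE 0.15, limma adjusted p of 0.399 with the block). Its relative Bub1b differed by -0.08, Plk1 (Polo-like kinase) by -0.15 and Birc5 (survivin) by 0.06. Aurka, the spindle pole kinase, differed by 0.005. Aurkb, the kinase of the chromosomal passenger complex, gave opposite values on the slides (-0.35 and 0.88).

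Cdc20, an activator of the anaphase-promoting complex, was the widest case of disagreement. It read 3.32 and 3.03 in the controls, 1.79 in knockout 1 and 3.28 in knockout 2. Knockout 1 stood well below the other 3 arrays, and the difference of means of -0.64 (SE 0.39, limma adjusted p of 0.542 with the block) rested on that array. Ube2c, the ubiquitin-conjugating enzyme of the same complex, read 4.26 and 4.14 in the controls and 4.15 and 4.48 in the knockouts.

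Mitotic chromosome, centromere and spindle proteins had differences of means near 0, but most were lower on slide 1 and higher on slide 2. Cenpe, for example, differed by -0.44 and 0.18 on the slides and Tpx2 by -0.30 and 0.27. Only Mki67 and Hmmr were lower on both. Mki67, the proliferation antigen that coats mitotic chromosomes, read 4.77 and 4.64 in the controls and 4.52 and 4.60 in the knockouts, a difference of -0.14 (SE 0.09, limma adjusted p of 0.534 with the block). Its other probe differed by -0.05, lower on slide 1 and higher on slide 2. Top2a, the topoisomerase that untangles sister chromatids, differed by 0.04. The centromere proteins Cenpa and Cenpe differed by -0.09 and -0.13. Spindle proteins ranged from -0.14 for Hmmr to 0.02 for Kif20a, with Kif11 (the motor that separates spindle poles), Tpx2 and Nusap1 between them.

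The gap between S-phase and G2/M members was wider on slide 1, and it was not tested. The S-phase median minus the G2/M median was 0.38 for group means, 0.64 on slide 1 and 0.11 on slide 2 (SD 0.377, n = 2). Taking each gene's deviation from its own mean over 4 arrays, the S-phase median was -0.09 and -0.19 in the controls, 0.30 in knockout 1 and -0.01 in knockout 2. The G2/M median was 0.15 and -0.04 in the controls, -0.11 in knockout 1 and 0.08 in knockout 2. The gap between the sets was therefore -0.24 and -0.15 in the controls, 0.41 in knockout 1 and -0.09 in knockout 2. Both knockout arrays lay above both controls in that gap, and knockout 1 was the only array above 0. Without knockout 1 the gap between the medians was 0.09 and the S-phase median 0.17, and without knockout 2 they were 0.63 and 0.47.

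**Figure D3:**
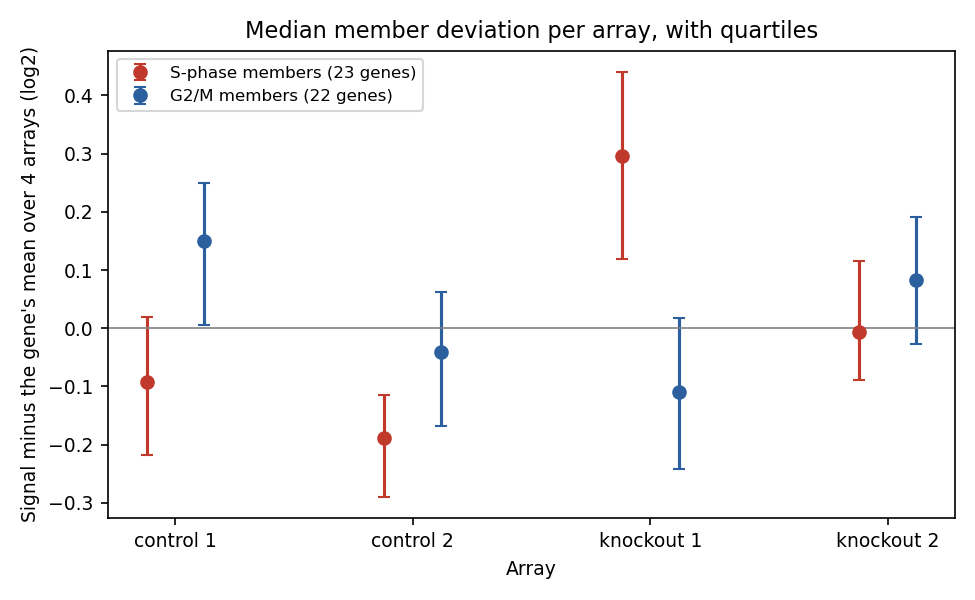
Median deviation of S-phase members (red, 23 genes) and G2/M members (blue, 22 genes) on each array from the gene's own mean over the 4 arrays (log2, vertical axis), with bars from the lower to the upper quartile over genes. S-phase medians run from -0.19 in control 2 to 0.30 in knockout 1, and G2/M medians from -0.11 in knockout 1 to 0.15 in control 1.

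Genes of the same pathways outside the 47 were read in the same way. Of 49 other replication genes tested, 37 (75.5%) were higher on both slides and 2 lower on both, against 34.0% and 27.2% of all genes. Their median difference was 0.22 (0.27 and 0.21). In the slide-block fit 0 passed in either direction, where 0.0523% of all genes were called higher and 0.402% lower. The smallest adjusted p was that of Gins3, a further GINS subunit, which read 3.82 and 4.41 in the controls and 4.35 and 5.11 in the knockouts. It was higher on both slides (0.53 and 0.70), with overlapping groups and a limma adjusted p of 0.0763 with the block. Next came Recql4, a helicase of origin firing, at 0.50 and the Mcm-binding protein Mcmbp at 0.46. Of 64 other mitosis genes tested, 10 (15.6%) were higher on both slides and 17 (26.6%) lower on both, the latter near the 27.2% of all genes. Again 0 passed, and the medians were -0.13 on slide 1 and 0.16 on slide 2. The smallest p-values there belonged to Stmn1, a microtubule regulator that differed by 0.22, Ncapg2, a condensin subunit, by 0.31, and Cenpn, a centromere protein, by 0.64.

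Upstream of both sets, 1 of 20 cell cycle transcription regulators passed higher and 0 lower in the slide-block fit, where 0.0523% and 0.402% of all genes did. Mycn, a Myc family factor, read 0.20 and -0.63 in the controls and 1.29 and 0.73 in the knockouts, without overlap. It rose by 1.23 (SE 0.14, 2.34-fold) in the slide-block limma fit with an adjusted p of 0.0457, but that value was 1.0 without the block and 0.473 with the block and no intensity trend. E2f1, an activator of S-phase genes, read 0.41 and 0.49 in the controls and 0.93 and 0.87 in the knockouts, a difference of 0.45 (limma adjusted p of 0.284 with the block). The repressor E2f8 differed by 0.33, Mybl2, the MuvB partner, by 0.15, and Myc by -0.10. The other E2F genes went either way, from -0.23 to 0.19. Of the 20 regulators 11 (55%) were higher on both slides and 3 (15%) lower on both, against 34.0% and 27.2% of all genes.

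All 8 G1 cyclins and kinases tested had a mean above control, as 54.3% of all genes did, 6 were higher on both slides, against 34.0% of all genes, and 0 passed in either direction. Cdk2, the kinase of cyclin E, read 0.50 and 0.08 in the controls and 1.11 and 0.70 in the knockouts, without overlap, and differed by 0.62 (limma adjusted p of 0.184 with the block). Skp2, which marks Cdkn1b for degradation, differed by 0.53 and Cdk4 by 0.25, while the D cyclins Ccnd1, Ccnd2 and Ccnd3 differed by 0.15, 0.21 and 0.07. Of 15 cell cycle inhibitors 0 passed and 7 (46.7%) were higher on both slides, against 34.0% of all genes. The smallest p-values in the slide-block fit were those of Cdkn2d at 0.38, Pkmyt1 at 0.40 and Cdkn2c at 0.26. Cdkn2a, named after its values were seen, read -3.81 and -4.05 in the controls and -5.16 and -5.10 in the knockouts, where it was not well above background (limma adjusted p of 0.408 with the block). Cdkn1b differed by -0.01. Cdkn1a (0.16 and 1.22 on the slides) and Cdkn1c (-1.35 and 0.06) were each well above background on 3 arrays.

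**Figure D4:**
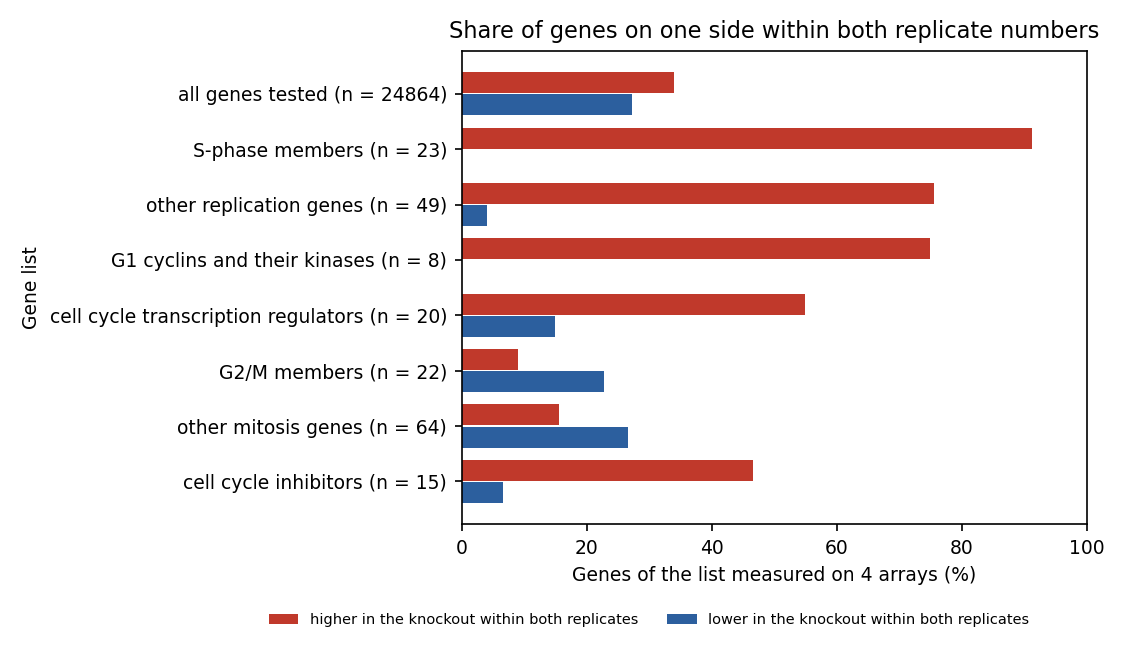
Share of the genes of each list (%, horizontal axis) that were higher (red) or lower (blue) in the knockout within both replicate numbers, for genes measured on all 4 arrays. S-phase members reach 91.3% and other replication genes 75.5% against 34.0% of all genes, while G2/M members and other mitosis genes are at 9.09% and 15.6%.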

How the data were processed

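Each of the 4 arrays was deposited as scanner output holding linear spot intensity after background correction and flags for outlier and background spots, made with Agilent Feature Extraction 12.0.3.1 per the file headers (the submitters' processing notes name 11.5.1.1). The authors' deposited table, used as an alternative, holds the same intensity times a constant per array (5.60 to 6.68), with column medians of 249, 231, 239 and 223; its target is unknown. Control and outlier spots were left out, and the linear intensities of a probe's spots were averaged. The log2 of that mean was then taken, minus the log2 of the array's 75th percentile over all non-control spots, outliers included. Probes well above background on both arrays of a group were kept (35421). Accessions were matched to RefSeq GRCm38.p6 (28331 of 55681 probes named).

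Groups were compared with limma 3.58.1 in R 4.3.3 (lmFit, eBayes with intensity trend), Benjamini-Hochberg over 24865 genes at 0.05, without a block (the stated fit) and with the slide as a block. Every member is named; of other lists, genes called in either fit, else the 3 smallest p with the block, and fixed genes. On simulated data of 24865 genes, 0% of planted log2 differences of 1 were recovered without the block (0 false calls) and 88% with it (15 false calls). The simulated noise followed the block fit's own intensity trend, with no further variance per gene, and each gene was given a slide effect. The gain with the block was thus built in, and 88% is not the power in these data. No member's group means differed by as much as 1. The members, lists and comparisons were chosen with earlier results of these data known.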

Additional observations from a re-analysis of the deposited data

How the results depend on the processing

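The S-phase and G2/M lists were described without a test. The S-phase median was 0.28 with quantile scaling, 0.33 with median scaling and 0.24 with normexp background correction; the G2/M median was -0.08, -0.05 and -0.08. Narrower lists gave 0.34 and -0.08. Leaving out 1 array at a time moved the S-phase median from 0.17 to 0.47, the G2/M median from -0.20 to 0.08 and their gap from 0.09 to 0.63, and the lowest S-phase median and gap came without knockout 1. Over 18 alternatives, 0 of 46 members passed in any, while 11 of 427 S-phase and 30 of 396 G2/M values changed sign. Several alternatives changed only the test, its threshold or a constant per array, and so had little or no scope to turn a sign. These shares therefore do not measure how stable the signs are. The S-phase changes were in Ccne2, Fen1, Gins2, Mcm3, Rrm2 and Uhrf1. Except for Ccne2, they came only from leaving out 1 array.

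Samples with the same replicate number share a slide, and the pairing was checked: across genes, the difference between the controls and that between the knockouts had a Pearson r of 0.563 (genes are not independent replicates). With the replicate block 13 genes were called higher and 100 lower, against 0 and 0 without it, and 14 and 107 when the 75th percentile was taken over averaged probes, an alternative chosen after seeing the data. With the block but no intensity trend 0 were called (smallest adjusted p of 0.435, unadjusted p under 0.05 in 1044 higher and 1024 lower genes). Leaving out 1 array in the fit without the block gave 0 to 6 genes higher and 9 to 94 lower, the lone array being assumed to vary like the other group. No member's call changed with the block. With 2 arrays per group the precision is limited, and 44 members were well above background on all 4 arrays.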

Other observations

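Bright genes as a whole leaned toward the knockout: of 10929 genes whose mean signal lay above the 75th percentile, 41.6% were higher on both slides and 25.4% lower on both. Of the 19 S-phase members in that range, 18 were higher on both slides.

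The core letters of the interferon-stimulated response element, on both strands, were found in a RefSeq promoter window of 0 of 19 S-phase members and 1 of 18 G2/M members (5.56%). They were found in 3.99% of all genes and 8 of 15 listed interferon-stimulated genes (53.3%). The wider pathway lists showed the same letters as the members: an E2F-like match in 24 of 41 other replication genes (58.5%) and a CHR match in 36 of 58 other mitosis genes (62.1%).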
